A study of Drosophila melanogaster with 18 samples.

Results

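The chemoreceptor genes of the fly were described across genotypes and fractions of adult heads. They were the rows of the gene count table whose FlyBase symbol is Orco, or an Or, Gr or Ir symbol with a number and a final lower-case letter, and which had at least 30 counts summed over the 18 libraries. The rule found 85 of the 17558 genes in the table, namely 45 of 60 odorant receptor (Or) genes, 15 of 60 gustatory receptor (Gr) genes and 25 of 66 ionotropic receptor (Ir) genes. Of the other chemoreceptor genes by symbol, 81 had 1 to 29 counts and 20 had 0. Just inside the limit lay Gr2a with 30 and Gr93a with 31 counts, and just outside it Ir11a with 29 and Gr93b with 28.

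In insects, an odorant receptor works as an ion channel only together with the co-receptor Orco, which most olfactory neurons of the antenna and the maxillary palp make, while each neuron makes only 1 or a few of the odour-tuning Or genes. Ionotropic receptors descend from glutamate receptors and likewise pair a tuning subunit with a broadly made co-receptor, Ir8a for acids and Ir25a with Ir76b for amines, and Ir93a serves with Ir25a in sensing humidity and temperature. Gustatory receptors detect sugars and bitter compounds in taste neurons, and Gr21a and Gr63a together form the carbon dioxide receptor of the antenna. A tuning receptor is thus made by a very small number of cells in a head.

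Total RNA had been sequenced from heads of adult Δmimi flies, which carry a CRISPR deletion of mimi, a long noncoding RNA gene, and of wild type flies, which per the study's methods were w1118. Flies of both genotypes were untreated, and per the study's methods whole flies were broken up in a blender and head tissue was collected on sieves under pressurized water, so that a preparation pooled many animals and antennae and palps, which are exposed appendages, were not dissected. Each preparation gave a tissue lysate and 2 pellets of its cleared supernatant, granules 1, collected directly, and granules 2, washed with detergent. The Δmimi lysate, Δmimi granules 1, Δmimi granules 2, wild type lysate, wild type granules 1 and wild type granules 2 groups each held 3 libraries, and a fraction shares its preparation with the other fractions of the same genotype and number. In such bulk samples, fewer neurons of a type and less RNA in each neuron cannot be told apart.

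The libraries held between 3635256 and 7798946 counts. mimi itself had 106, 67 and 64 counts in Δmimi lysates, against 10841, 7090 and 7463 in wild type lysates. It was as low in the granules, at log2 fold changes of -7.89 in granules 1 and -7.41 in granules 2, so the libraries carried the genotype of their labels. The 85 chemoreceptor genes together took 0.0417% of the counts in Δmimi lysates and 0.0361% in wild type lysates, and between 1532 and 3957 counts in a library. Thin counts limit most of these genes: 37 had at least 10 counts in every Δmimi lysate, and 37 had so in every wild type lysate. Or19a was the only member with 0 counts in all 3 libraries of a group, wild type granules 2, where a floor of 3 counts per library is the limit. Other cell types varied as well. The summed level of 8 flight and leg muscle markers was highest in preparation 2 of both genotypes, and that of oocyte and germline markers was 93.7 to 262 CPM in Δmimi lysates, against 60.6 to 81.8 CPM in wild type lysates.

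Levels are given in CPM, that is counts scaled to a fixed library size, with libraries balanced by edgeR's TMM factors, and, where genes are compared with each other, in CPM per kilobase of exon. In wild type lysates Orco stood at 52.2 ± 5.36 CPM per kilobase (SD, n = 3), far above every other member. Ir76a, an amine receptor of the antenna, followed at 11.9 ± 2.67 CPM per kilobase. Next in level came Or59b at 6.00 ± 1.67, Ir25a at 5.82 ± 0.616, Ir76b at 5.64 ± 1.32 and Ir62a at 5.55 ± 0.770 CPM per kilobase, and these neighbours did not differ beyond their spread. Ir62a lies within Iml1 on the same strand, and Iml1 was at 117 CPM in wild type lysates. Reads of unspliced Iml1 RNA could count toward Ir62a, which was not tested. Among tuning Or genes, Or43b, Or92a and Or47b had means between 4.07 and 4.91 CPM per kilobase. The gustatory receptors were the lowest family: Gr63a reached 35 counts in its highest library, while the median member of the family had 84 counts over all 18 libraries, compared with 215 for Or genes and 335 for Ir genes.

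**Figure D1:**
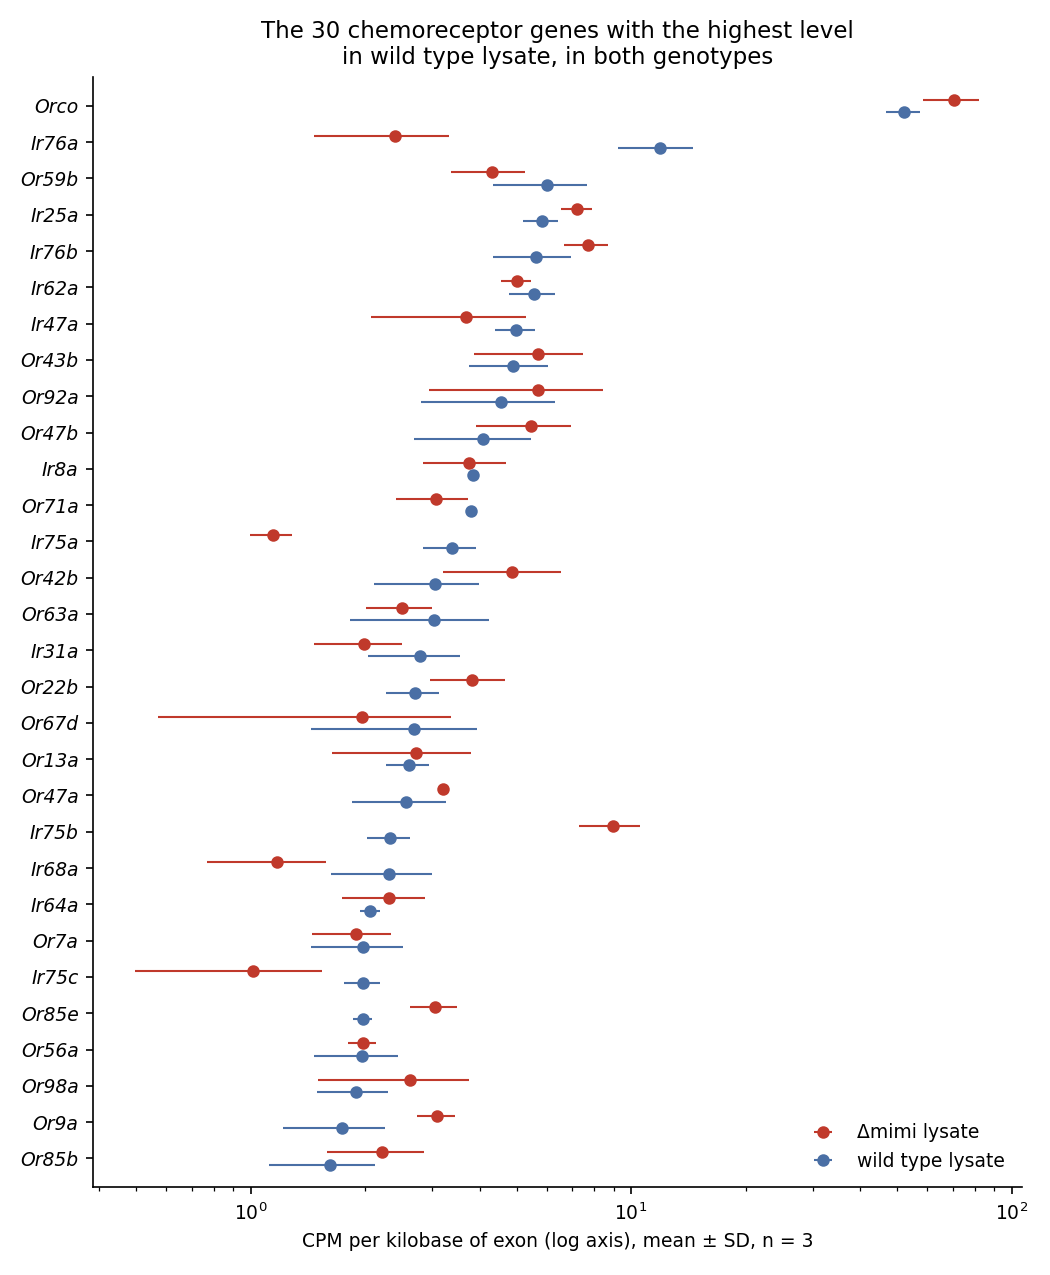
Level in CPM per kilobase of exon (log axis) of the 30 chemoreceptor genes with the highest mean in wild type lysate. Points are means over 3 libraries and bars the SD, with Δmimi lysate above wild type lysate for each gene. Orco lies apart at 70.5 CPM per kilobase in Δmimi and 52.2 in wild type lysates, and Ir76a, Ir75a and Ir75b are the genes whose points lie farthest apart.

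The co-receptors report on whole classes of sensory neurons, and no tested one was called between the genotypes in lysates. Orco, Ir25a and Ir76b were higher in every Δmimi than in every wild type lysate. Groups did not overlap for 19.1% of all genes tested. Orco had 162, 118 and 130 CPM in Δmimi lysates, against 113, 92.2 and 99.2 CPM in wild type lysates. All 3 Δmimi values lay above the wild type values, but by a small margin: the log2 fold change was 0.43 with a standard error (SE) of 0.15 and an adjusted p of 0.263 in edgeR's quasi-likelihood test over all genes. Fitted with the preparation number as a block, the difference in Orco was of the same size, 0.42, with an adjusted p of 0.00334 in edgeR, and it stayed under the fold limit of 0.5 on the log2 scale that a call needed here. Orco differed by similar amounts in the granules, by 0.42 (SE 0.13) in granules 1 and 0.40 (SE 0.16) in granules 2 on the log2 scale. These fractions come from the same preparations and are no independent evidence.

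Ir25a, the most widely made ionotropic co-receptor, had 28.6, 25.3 and 23.8 CPM in Δmimi lysates, against 20.8, 23.1 and 18.7 CPM in wild type lysates. The groups did not overlap, and the log2 fold change of 0.31 (SE 0.14) did not pass the test (adjusted p = 0.380, edgeR). Ir76b had 20.4, 16.2 and 16.6 CPM in Δmimi lysates, against 16.0, 9.89 and 13.2 CPM in wild type lysates. Its groups were apart by a narrow margin, and its log2 fold change of 0.44 (SE 0.21) did not pass either. Ir8a, the partner of the acid receptors, was at 10.6 ± 2.59 CPM in Δmimi lysates and 10.8 ± 0.317 CPM in wild type lysates (SD, n = 3 each), and its groups overlapped. Its log2 fold change was -0.03 with an SE of 0.21. Ir93a was too thinly counted to test, with 10, 4 and 1 counts in Δmimi lysates and 3, 6 and 3 counts in wild type lysates.

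**Figure D2:**
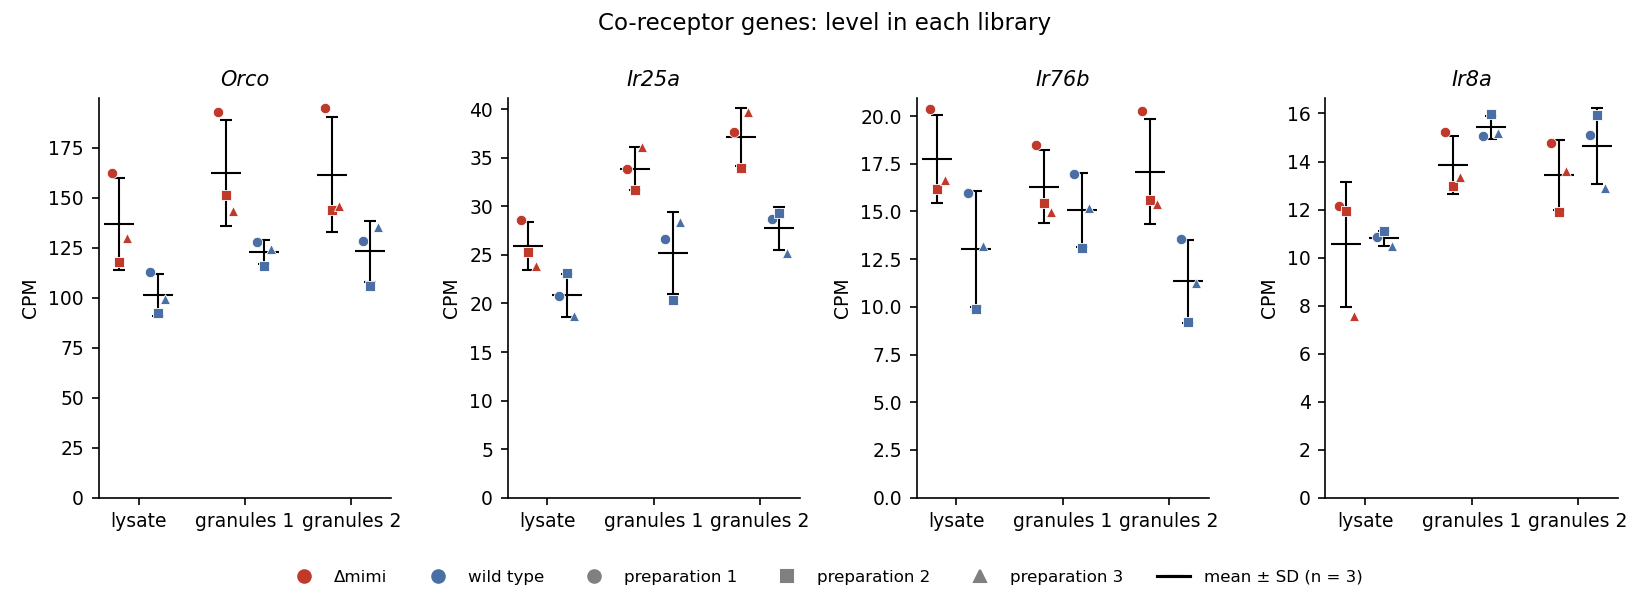
Level in CPM of the olfactory co-receptor Orco and the ionotropic co-receptors Ir25a, Ir76b and Ir8a in each of the 18 libraries, by fraction, with Δmimi left of wild type. Symbols mark the preparation, and the bars give the mean and SD of 3 libraries. Orco is higher in the 3 Δmimi than in the 3 wild type libraries of every fraction, while Ir8a overlaps between genotypes in lysate.

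By family, the summed level of the 45 Or genes was 317, 224 and 235 CPM in Δmimi lysates, against 227, 179 and 195 CPM in wild type lysates. The ranges met only at the lowest Δmimi and the highest wild type library. Without Orco the sum was 122 ± 28.2 CPM in Δmimi and 99.0 ± 13.8 CPM in wild type lysates (SD, n = 3 each), which overlapped. The 25 Ir genes summed to 135 ± 25.1 CPM in Δmimi and 143 ± 13.9 CPM in wild type lysates, and the 15 Gr genes to 16.1 ± 3.90 CPM in Δmimi and 14.5 ± 0.721 CPM in wild type lysates, with overlap in both families. Among receptor classes, the 7 Or genes of the maxillary palp did not overlap, with 26.5, 20.0 and 23.4 CPM in Δmimi lysates, against 12.4, 15.1 and 17.0 CPM in wild type lysates. Or46a, described below, made up 8.28 CPM of the mean palp sum in Δmimi and 2.41 CPM of it in wild type. The pair of carbon dioxide receptor genes also stood apart, with 6.90, 4.22 and 6.05 CPM in Δmimi lysates and 3.58, 2.94 and 3.60 CPM in wild type lysates. In granules 1 the pair overlapped, at 6.22, 4.96 and 4.87 CPM in Δmimi and 5.71, 4.57 and 3.04 CPM in wild type. The 4 ionotropic co-receptor genes were narrowly apart in lysates. They summed to 62.7, 54.2 and 48.2 CPM in Δmimi and 48.0, 44.9 and 42.9 CPM in wild type. For class sums, no share over all genes is given here.

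For single genes, the question was which chemoreceptors differed between Δmimi and wild type heads. A gene was tested where its mean normalized count exceeded 10, and called at an adjusted p under 0.05 with an absolute log2 fold change above 0.5. In lysates 47 members were tested, and edgeR called 1 higher and 2 lower in Δmimi, against 0.859% of all 9774 genes tested called higher and 0.778% called lower (1.64% in either direction). All 3 were ionotropic receptors: Ir75b rose, and Ir75a and Ir76a fell. None of the 28 Or and 4 Gr genes tested was called, and 6 Or genes and 1 Gr gene had an unadjusted p under 0.05 in edgeR. Here and below, counts at an unadjusted p under 0.05 are given without the share of all genes, as a description only. DESeq2 called 4 members, against 4.41% of all genes, adding Or46a, and 0 Gr genes. With the preparation number as a block, edgeR called 3 higher and 3 lower, adding Or46a, Or67a and Ir68a, against 5.43% of all genes called higher and 4.02% called lower (9.45% in either direction).

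The tested Or genes lay mostly above 0 in lysates, 22 above and 6 below, with a median log2 fold change of 0.42, compared with a median of -0.01 over all genes tested. Since a gene that was high in 1 genotype passed the filter more easily, the fit with no filter was read too: of all 45 Or genes 30 were above 0 and 15 below, with a median of 0.32, and of all 25 Ir genes 14 were above and 11 below. In all, 11 tested members were higher and 3 lower in every Δmimi lysate than in every wild type lysate, against 19.1% of all genes tested with groups that did not overlap. The higher ones were Orco, Or9a, Or46a, Or65b, Or67a, Or85e, Gr63a, Ir25a, Ir75b, Ir76b and Ir84a, and the lower ones were Ir75a, Ir75c and Ir76a.

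**Figure D3:**
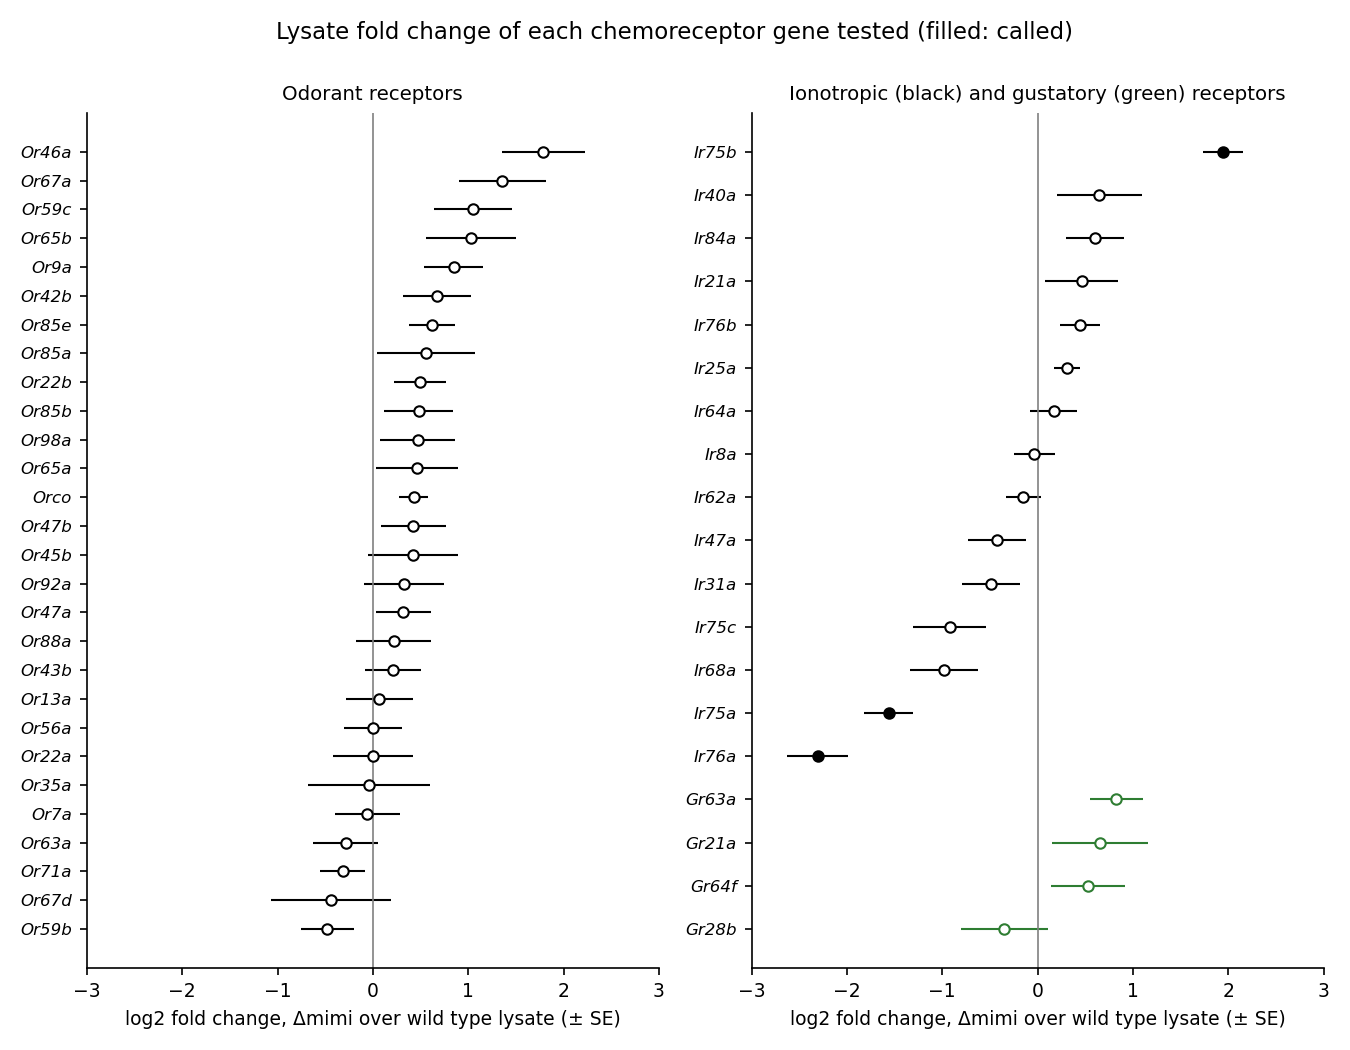
Log2 fold change of Δmimi over wild type lysate for the 47 chemoreceptor genes tested, with SE bars. Odorant receptors are on the left, ionotropic (black) and gustatory (green) receptors on the right, and filled points mark called genes. Most odorant receptors lie right of 0 without passing the test, and Ir75b at 1.94 and Ir76a at -2.31 are the extremes.

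The strongest contrast lay within 1 small gene cluster. Ir75a, Ir75b and Ir75c code for acid-sensing receptors that act with Ir8a, and they lie head to tail on the minus strand of chromosome 3L in the dm6 assembly, Ir75a at 17815570 to 17817921, Ir75b at 17818073 to 17820193 and Ir75c at 17820493 to 17822834, only 152 and 300 bases apart. None of the 3 shares exon bases with another annotated gene. They are paralogs, so reads of any near-identical stretch could be split or lost between them, and their sequence identity was not computed here.

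Ir75b had 130, 89 and 72 counts in Δmimi lysates, against 30, 28 and 28 counts in wild type lysates, which is 19.5, 15.7 and 13.6 CPM in Δmimi and 4.13, 3.74 and 4.80 CPM in wild type. Every Δmimi lysate was far above every wild type lysate. The log2 fold change was 1.94 (SE 0.21, adjusted p = 0.00475, edgeR), and Ir75b was still called without any single lysate, with adjusted p values of 0.0129 to 0.0306. In granules the difference was smaller: Ir75b was at 9.23 ± 1.16 CPM in Δmimi and 4.49 ± 1.55 CPM in wild type granules 1, and at 9.99 ± 3.81 CPM in Δmimi and 5.75 ± 1.57 CPM in wild type granules 2. The genotypes did not overlap in granules 1, but in granules 2 the lowest Δmimi value, 6.93 CPM, was under the highest wild type value, 6.98 CPM. Neither log2 fold change of Ir75b in granules, 1.06 (adjusted p = 0.0711) and 0.83 (adjusted p = 0.238), was called in edgeR, whereas the blocked fit called both, with adjusted p values of 0.0126 and 0.0152.

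Its neighbour Ir75a went the other way, with 16, 11 and 13 counts in Δmimi lysates, against 54, 41 and 42 counts in wild type lysates. The mean was 2.26 ± 0.286 CPM in Δmimi and 6.70 ± 1.07 CPM in wild type lysates, with no overlap. Ir75a fell by 1.56 on the log2 scale (SE 0.26, adjusted p = 0.0309, edgeR). The call for Ir75a rested on most of the lysates, since it was lost without wild type replicate 1 (adjusted p = 0.132) or 3 (0.154), without Δmimi replicate 2 (0.120) or 3 (0.110), and without preparation 2 of both genotypes (0.110), while the log2 fold change lay between -1.69 and -1.46. Ir75a was also called lower in granules 1, at a log2 fold change of -1.15 (SE 0.27, adjusted p = 0.0477), and in granules 2, at -1.75 (SE 0.33, adjusted p = 0.0228), both in edgeR. Its granules 1 call was borderline: DESeq2 gave an adjusted p of 0.0528, and 5 of the 6 fits with a library left out lost it, all but that without wild type replicate 2. In granules 2 the call of Ir75a was lost without wild type replicate 1 (0.0954) or 3 (0.0961), or Δmimi replicate 2 (0.0764) or 3 (0.0749).

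Ir75c had 10, 7 and 8 counts in Δmimi granules 1, against 36, 32 and 33 counts in wild type granules 1. It passed the filter there through its wild type counts. Ir75c fell by 1.87 on the log2 scale in granules 1 (SE 0.25, adjusted p = 0.00616, edgeR) and kept the call without any single library. In lysates Ir75c had 20, 9 and 6 counts in Δmimi and 30, 25 and 21 counts in wild type. The groups did not overlap in CPM, but the log2 fold change of -0.92 (SE 0.39) did not pass the test (adjusted p = 0.347). In granules 2 the value was -1.50 (SE 0.48, adjusted p = 0.142, edgeR), and only the blocked fit called Ir75c there (adjusted p = 0.00491).

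Within the cluster the shares of the 3 genes were reordered. Ir75b took 78.3%, 81.7% and 79.1% of the counts of the 3 genes in Δmimi lysates, against 26.3%, 29.8% and 30.8% in wild type lysates. Ir75a took 11.3 ± 2.56% in Δmimi and 45.7 ± 1.91% in wild type lysates, and Ir75c 8.97 ± 2.80% in Δmimi and 25.3 ± 1.96% in wild type lysates (SD, n = 3 each). The raw total of the 3 genes, not scaled to library size, was 166, 109 and 91 counts in Δmimi lysates and 114, 94 and 91 in wild type lysates. The Δmimi lysates held 6584532, 5983343 and 5007645 counts of all genes, and the wild type lysates 6989763, 7798946 and 5598380. Equal raw totals are therefore not equal levels, and the scaled total is not given here. The genotypes did not overlap in the share of any of the 3 genes in any fraction: the Ir75b share was 67.8 ± 3.43% in Δmimi and 26.6 ± 4.50% in wild type granules 1, and 72.8 ± 1.17% in Δmimi and 32.4 ± 1.37% in wild type granules 2. The shares rest on the same counts as the calls above and are a description of them.

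Ir76a, which lies elsewhere on 3L (19799278 to 19803427, plus strand), was the tested member with the largest fall in lysates. It had 43, 16 and 31 counts in Δmimi lysates, against 200, 140 and 170 counts in wild type lysates. The means were 5.04 ± 1.95 CPM in Δmimi and 25.1 ± 5.62 CPM in wild type lysates, and the groups were far apart. Ir76a fell by 2.31 on the log2 scale in lysates (SE 0.32, adjusted p = 0.0147), by 1.79 in granules 1 (SE 0.22, adjusted p = 0.00416) and by 2.13 in granules 2 (SE 0.23, adjusted p = 0.00212), all in edgeR. The granule calls held without any single library. The lysate call was lost without wild type replicate 1 (adjusted p = 0.0643), wild type replicate 3 (0.0749) or Δmimi replicate 3 (0.0691), at log2 fold changes of -2.55 to -2.02 over the 6 fits. Per length Ir76a was at 2.39 CPM per kilobase in Δmimi lysates, against 11.9 CPM per kilobase in wild type lysates, where it ranked 2 among all members. Of its exon bases, 297 lie opposite those of CG14102, whose lysate log2 fold change was 0.03 (adjusted p = 0.982, edgeR). The strand setting of the counting is not given in the sources used here.

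Or46a, an odorant receptor of the maxillary palp on chromosome 2R, was the only member of its family called between the genotypes in the unblocked, filtered edgeR fits and in DESeq2. It had 81, 25 and 44 counts in Δmimi lysates, against 11, 21 and 17 counts in wild type lysates. The highest value came from preparation 1 of Δmimi, and the lowest Δmimi level, 4.40 CPM, exceeded the highest wild type level, 2.92 CPM. The lysate log2 fold change of 1.79 (SE 0.44) did not pass in edgeR (adjusted p = 0.116), but did with the preparation block (adjusted p = 0.0115). In granules the rise of Or46a was called, by 1.91 in granules 1 (SE 0.39, adjusted p = 0.0299) and by 1.99 in granules 2 (SE 0.28, adjusted p = 0.00705, edgeR). In granules 2 the call held without any single library, and the counts were 94, 42 and 45 in Δmimi, against 12, 11 and 11 in wild type. In granules 1 it held only without Δmimi replicate 2, and the other 5 left-out fits gave adjusted p values of 0.0513 to 0.108. An antisense RNA, asRNA:CR43467, covers 2450 exon bases of Or46a on the other strand, and it had 1, 0 and 2 counts in Δmimi lysates and 0, 3 and 2 counts in wild type lysates.

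The other palp receptors tested gave a mixed picture. Or59c had a lysate log2 fold change of 1.05 (SE 0.41), Or85e of 0.62 (SE 0.25) and Or71a of -0.31 (SE 0.24), and none was called. Or71a lies within Plp on the same strand, and Plp was at 315 CPM in wild type lysates. Reads of unspliced Plp RNA could count toward Or71a, which was not tested. Or85d, named after its values were seen, was too thin for the filtered test. It had 13, 5 and 11 counts in Δmimi granules 1, against 2, 2 and 2 counts in wild type granules 1, and the fit with no filter on low counts called Or85d there (log2 fold change 2.32, adjusted p = 0.0453, edgeR), where 2.25% of 14649 genes were called higher. All 3 wild type libraries of granules 1 were under the floor of 3 counts.

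Ir47b is annotated as a pseudogene on chromosome 2R, and it was called higher in both granule fractions. It passed the filter there only through its Δmimi counts, and in lysates it was too thin to test. It had 16, 20 and 13 counts in Δmimi granules 1, against 5, 3 and 6 counts in wild type granules 1. In granules 2 it had 41, 13 and 14 counts in Δmimi, against 3, 4 and 2 counts in wild type, and no library of one genotype reached the other in either fraction. The log2 fold changes of Ir47b were 1.92 (SE 0.42, adjusted p = 0.0396) in granules 1 and 2.45 (SE 0.50, adjusted p = 0.0302) in granules 2, in edgeR. In granules 1 each of the 4 left-out fits that still tested Ir47b lost the call, those without wild type replicate 1 (0.117), 2 (0.0936) or 3 (0.0813) and without Δmimi replicate 3 (0.0780). In granules 2 the call was lost without wild type replicate 1 (0.114), 2 (0.0728) or 3 (0.117) or Δmimi replicate 3 (0.0637), and kept without Δmimi replicate 2. Without preparation 2 of both genotypes the adjusted p of Ir47b was 0.148 in granules 1 and 0.0575 in granules 2.

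Ir47b shares 413 exon bases with Ir47a on the same strand, and both genes lie within SLO2, so that their reads are not cleanly separable. Ir47a had 110, 52 and 39 counts in Δmimi lysates, against 117, 96 and 92 counts in wild type lysates, with overlap and a log2 fold change of -0.43 (SE 0.30, adjusted p = 0.620, edgeR). Of the counts of the pair, Ir47b took 19.3 ± 9.04% in Δmimi lysates and 3.87 ± 2.26% in wild type lysates, 20.1 ± 6.09% in Δmimi and 5.01 ± 1.69% in wild type granules 1, and 25.4 ± 10.9% in Δmimi and 4.58 ± 2.38% in wild type granules 2. The share of Ir47b was higher in Δmimi in every fraction, without overlap. SLO2 itself had a lysate log2 fold change of -0.51 (adjusted p = 0.330).

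**Figure D4:**
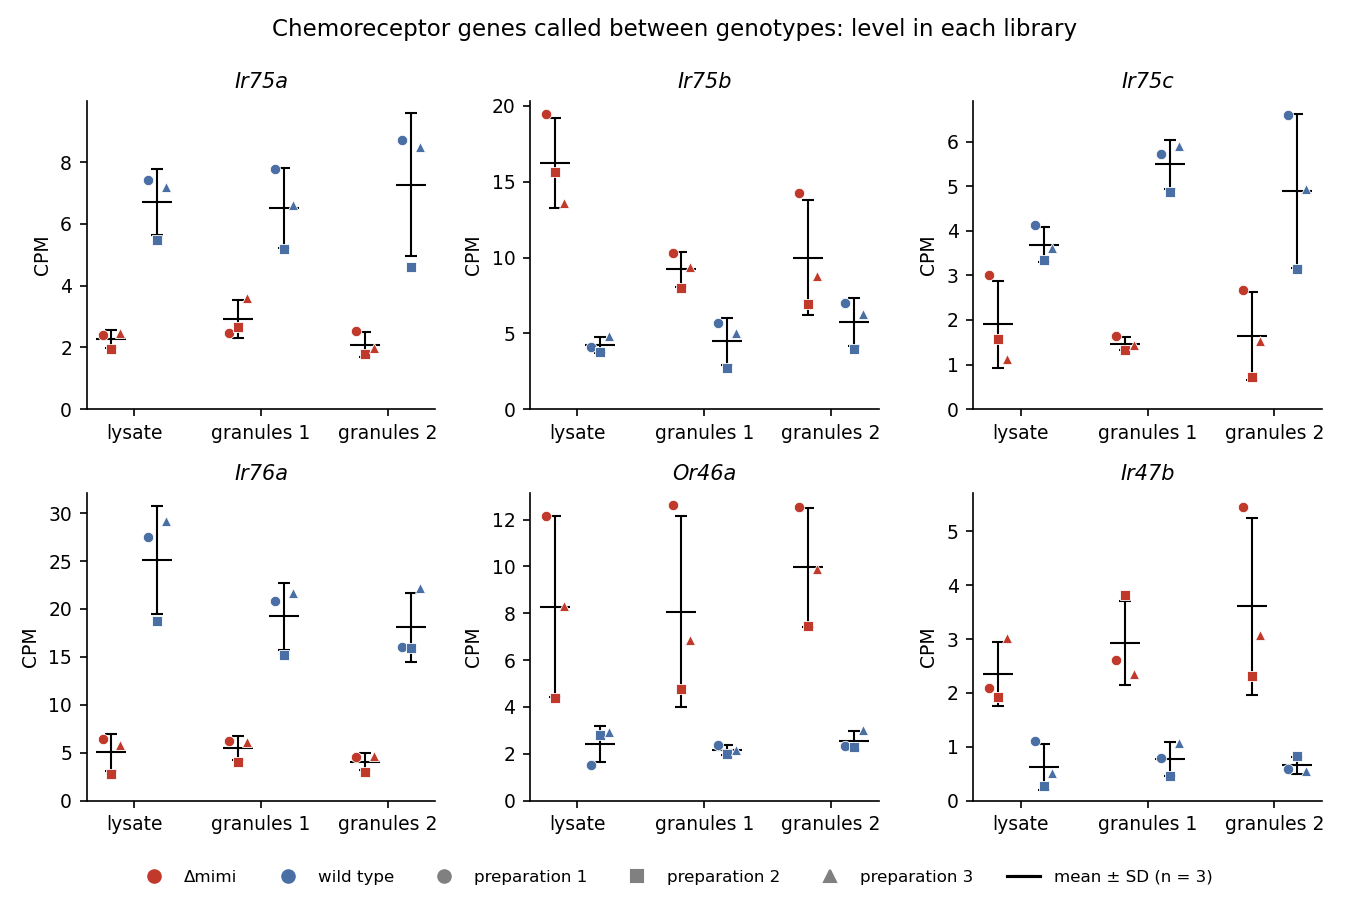
Level in CPM of the 6 chemoreceptor genes called between genotypes in any fraction, in each of the 18 libraries, with Δmimi left of wild type. Symbols mark the preparation, and the bars give the mean and SD of 3 libraries. Ir75a, Ir75c and Ir76a lie lower and Ir75b, Or46a and Ir47b higher in Δmimi, and within Δmimi Or46a is highest in preparation 1 in every fraction.

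The same genotype comparison within the granule fractions gave few further calls. In granules 1, edgeR tested 45 members and called Or46a and Ir47b higher and Ir75a, Ir75c and Ir76a lower, against 2.71% of 9763 genes called higher and 3.04% called lower (5.76% in either direction). In granules 2 it tested 39 members and called Or46a and Ir47b higher and Ir75a and Ir76a lower, against 2.67% of 9636 genes called higher and 2.57% called lower (5.24% in either direction). DESeq2 called 5 members in granules 1, against 7.4% of all genes, with Ir75b in place of Ir75a, and the same 4 in granules 2, against 6.65%. With the preparation block, 7 members were called in granules 1, against 10.5% of all genes, and 10 in granules 2, against 11.2%. Groups did not overlap for 6 higher and 6 lower members in granules 1, against 26.3% of all genes, and for 9 higher and 5 lower members in granules 2, against 24.2%. All 3 comparisons draw on the same 6 preparations, so a gene called in several of them was not found several times over.

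Ir68a, a receptor of moist-air sensing neurons, had 19, 22 and 10 counts in Δmimi lysates, against 51, 46 and 22 counts in wild type lysates. In CPM its groups overlapped in lysates, where preparation 3 of wild type was low. Its log2 fold change lay between -1.01 and -0.98 in the 3 fractions, with SEs of 0.28 to 0.35. Ir68a was not called in lysates (adjusted p = 0.265), granules 1 (0.115) or granules 2 (0.0851) by edgeR without the block, and the blocked fit called Ir68a in all 3, with adjusted p values of 0.0314, 0.0395 and 0.0289.

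Further genes were called only in single blocked fits. Between genotypes these pair libraries by number, and the labels do not say what the number shares there. Or67a had 28, 13 and 9 counts in Δmimi lysates, against 10, 7 and 5 counts in wild type lysates, with a log2 fold change of 1.36 (SE 0.45). Its adjusted p was 0.225 without and 0.0331 with the block, in edgeR, and it passed the filter through its Δmimi counts. In granules 2 the blocked fit called Ir76b (log2 fold change 0.61, adjusted p = 0.0146) and Or9a (1.32, adjusted p = 0.0254) higher and Or59b (-0.73, adjusted p = 0.0464) lower. Or59b lies within CG43795 on the opposite strand, and CG43795 was at -0.58 there (adjusted p = 0.0645, edgeR without the block). Or59c lies within CG43795 too, and its mean was higher in Δmimi than in wild type lysates. The strand setting is not given, and a part of CG43795 reads in Or59b was not tested. Gr63a, of the carbon dioxide receptor, had 26, 19 and 20 counts in Δmimi lysates and 13, 14 and 15 counts in wild type lysates, with no overlap and a log2 fold change of 0.82 (SE 0.28, adjusted p = 0.236). Its partner Gr21a was at 0.65 (SE 0.51), with overlapping counts of 20, 5 and 12 in Δmimi and 13, 8 and 6 in wild type lysates. Ir41a, another amine receptor, was too thin for the filter. It had 22, 13 and 7 counts in Δmimi lysates, against 3, 6 and 2 counts in wild type lysates, and an unfiltered log2 fold change of 2.09 (SE 0.55, adjusted p = 0.106).

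The remaining tested receptors were not called in lysates in either fit. Ir84a, a receptor for phenylacetic acid, had 20, 14 and 19 counts in Δmimi lysates, against 13, 18 and 10 counts in wild type lysates, and it stood apart in CPM by a narrow margin, at a log2 fold change of 0.60 (SE 0.30). Ir40a, which serves dry-air sensing, had 47, 12 and 19 counts in Δmimi lysates, against 18, 20 and 18 counts in wild type lysates. Only preparation 1 of Δmimi was high, and the log2 fold change of 0.65 had an SE of 0.44. Ir31a was at -0.49 (SE 0.31) and Ir21a, of the cooling-sensing neurons, at 0.46 (SE 0.38), both with overlap. Among receptors of the pheromone-sensing trichoid sensilla, Or47b was at 0.43 (SE 0.34), Or65a at 0.46 (SE 0.43), Or88a at 0.22 (SE 0.39) and Or67d, which detects the male pheromone cis-vaccenyl acetate, at -0.44 (SE 0.63) on the log2 scale. Or67d was the least certain of them, with 25, 3 and 14 counts in Δmimi lysates and 34, 13 and 18 counts in wild type lysates. The sugar co-receptor Gr64f had 27, 10 and 14 counts in Δmimi lysates, against 13, 13 and 14 counts in wild type lysates, and its groups overlapped at a log2 fold change of 0.53 (SE 0.38). No bitter receptor had enough counts for the filtered test.

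Genes next to the called receptors were read as well, within 20000 bases, a window chosen after the calls were seen. Of 43 such genes 30 were tested in lysates and 3 were called, where 1.64% of all genes were. Ir75a and Ir75b were among them as each other's neighbours, and their own calls had set the windows. The count can therefore not be compared with the share of all genes. The remaining called gene was Cyp305a1, a cytochrome P450 gene 6976 bases from Ir76a. Cyp305a1 fell by 1.05 on the log2 scale (SE 0.12, adjusted p = 0.00534, edgeR). Around the Ir75 cluster CG32191 was at -0.79 (adjusted p = 0.0956), Cln3 at -0.20 and Grd at -0.14, none of them called. Sequence differences between the Δmimi and wild type lines at these loci were not analysed here, so an effect of the deletion and a difference in strain background cannot be told apart.

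The granule pellets were then set against the lysate they came from, which asks whether a transcript is concentrated in the pellet. The unblocked edgeR fits, which leave out the pairing of pellet and lysate, called no member in any of the 4 comparisons. In granules 1 these were 45 members tested in Δmimi, against 4.65% of all genes called, and 46 in wild type, against 8.17%. In granules 2 they were 47 in Δmimi, against 4.32%, and 41 in wild type, against 9.46%. At an unadjusted p under 0.05 there were 2 members in Δmimi granules 1, 5 in wild type granules 1, 4 in Δmimi granules 2 and 5 in wild type granules 2. DESeq2 called 1 member, Ir75b, lower in Δmimi granules 1, against 6.85% of all genes, and 0 in wild type granules 1 (9.89% of all genes), Δmimi granules 2 (6.92%) and wild type granules 2 (10.5%). The medians of the members were within 0.10 of 0 in all 4 comparisons. Calls of the blocked fits, which keep the pairing, are given below.

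The co-receptors had the most regular values. Ir25a was at 37.7, 33.9 and 39.8 CPM in Δmimi granules 2, against 28.6, 25.3 and 23.8 CPM in Δmimi lysates, without overlap. Granules 2 exceeded lysate by a log2 fold change of 0.52 (SE 0.13, adjusted p = 0.0676, edgeR) in Δmimi and 0.42 (SE 0.14, adjusted p = 0.0937) in wild type. Ir8a was at 15.1, 16.0 and 15.2 CPM in wild type granules 1, against 10.9, 11.1 and 10.5 CPM in wild type lysates. This difference passed the test but not the fold limit (log2 fold change 0.497, SE 0.12, adjusted p = 0.0478, edgeR). Orco was at 0.24 (SE 0.16) in Δmimi and 0.26 (SE 0.11) in wild type on the log2 scale in granules 1 over lysate.

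A few tuning receptors lay farther out. Ir75b was at 10.3, 8.01 and 9.38 CPM in Δmimi granules 1, against 19.5, 15.7 and 13.6 CPM in Δmimi lysates, and the groups did not overlap. The log2 fold change was -0.82 (SE 0.19, adjusted p = 0.0533, edgeR), and with the preparation block it was called (adjusted p = 0.000511). In wild type, granules over lysate put Ir75b at 0.07 (SE 0.31) in granules 1 and 0.46 (SE 0.27) in granules 2. Ir64a, another acid receptor, was at 9.11, 7.33 and 9.60 CPM in wild type granules 2, against 5.50, 4.94 and 5.49 CPM in wild type lysates, with a log2 fold change of 0.71 (SE 0.19, adjusted p = 0.0541) and a call only in the blocked fit (adjusted p = 0.0120). Or85e was lower in granules 2 than in lysates in both genotypes, with log2 fold changes of -1.01 (SE 0.38) in Δmimi and -1.06 (SE 0.43) in wild type, from counts of 3 to 27. It was called only in Δmimi with the block (adjusted p = 0.0140). The blocked fits of granules 2 over lysate called 3 members in Δmimi, against 14.8% of all genes, which were Ir25a higher and Ir75b and Or85e lower, and 1 in wild type, against 18%. In granules 1 they called 1 in Δmimi, against 14.2%, and 0 in wild type, against 16.7%.

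**Figure D5:**
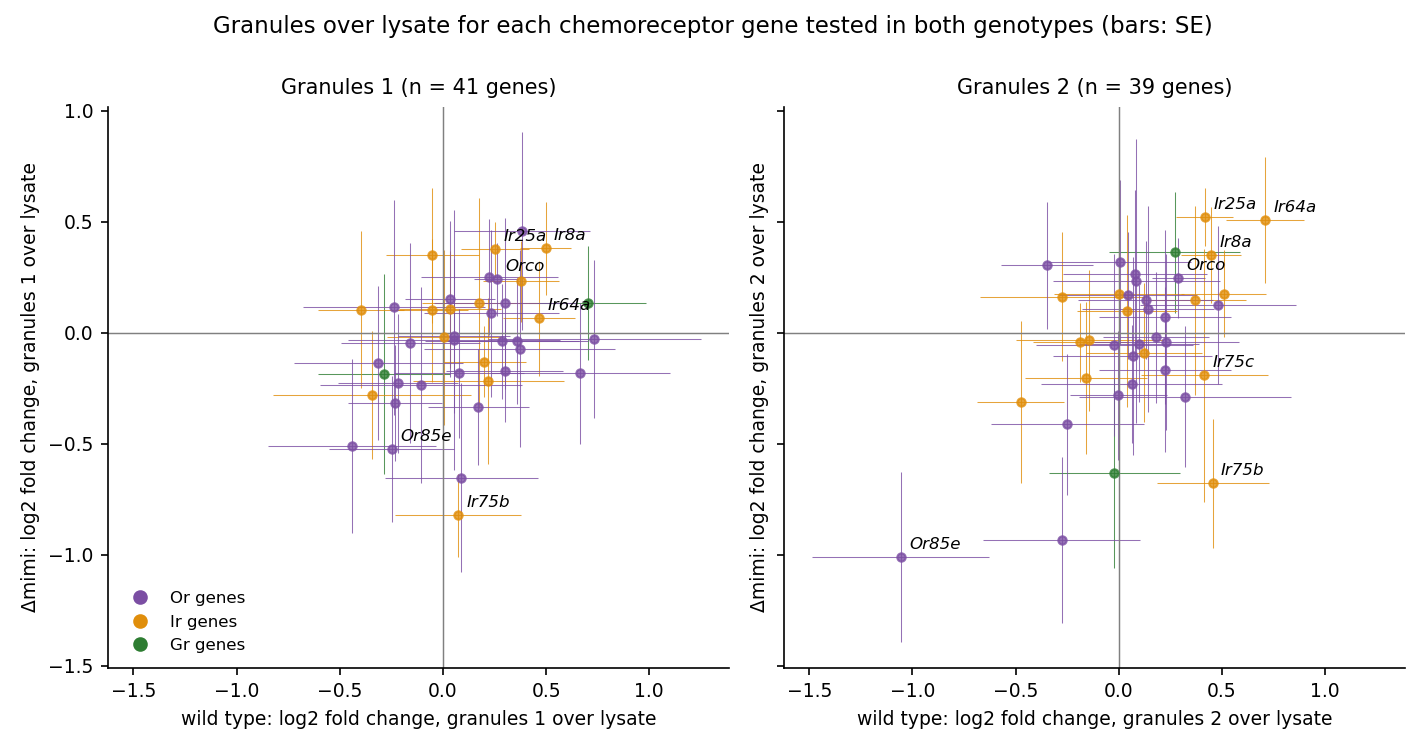
Log2 fold change of granules 1 (left) and granules 2 (right) over lysate for the chemoreceptor genes tested in both genotypes, with Δmimi on the vertical and wild type on the horizontal axis. Bars are SE and colours the gene families. The genes cluster around 0 in both directions, Ir75b lies below 0 in Δmimi only, and Or85e lies below 0 in both genotypes for granules 2.

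Whether the granule enrichment differed between genotypes was tested as an interaction. No member was called in edgeR, neither among 45 tested in granules 1 (0.0102% of all genes called) nor among 44 in granules 2 (0% called), and DESeq2 called 0 members as well. The blocked fit also called 0, against 0.358% of all genes in granules 1 and 0.441% in granules 2. In each fraction 1 member had an unadjusted p under 0.05, and it was Ir75b, with Δmimi minus wild type differences of -0.88 (SE 0.35, adjusted p = 0.9999) in granules 1 and -1.12 (SE 0.42, adjusted p = 0.9999) in granules 2 on the log2 scale. The wash was tested by comparing granules 2 with granules 1. No member of 43 in Δmimi and of 40 in wild type was called in edgeR, nor with DESeq2, against 0% of all genes in both, and 2 members in Δmimi and 0 in wild type had an unadjusted p under 0.05.

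Genes that act beside the receptors were read from lists drawn up from general knowledge. Of 22 tested partner genes of chemosensation, among them odorant-binding proteins, 2 were called higher and 0 lower in Δmimi lysates by edgeR, against 1.64% of all genes called, with a median log2 fold change of 0.37. The blocked fit called 7 of them higher, against 9.45% of all genes, and DESeq2 7, against 4.41%. Obp56d was at 1330, 2141 and 1635 CPM in Δmimi lysates, against 510, 825 and 625 CPM in wild type lysates, and Obp99b at 57.1, 48.2 and 43.1 CPM in Δmimi, against 20.1, 8.95 and 8.75 CPM in wild type. Neither overlapped, and both rose, Obp56d by 1.37 (SE 0.24, adjusted p = 0.0390) and Obp99b by 1.96 (SE 0.33, adjusted p = 0.0347) on the log2 scale, in edgeR. The summed level of the list lay between 7038 and 8589 CPM in Δmimi lysates and between 5857 and 5977 CPM in wild type lysates. Of 24 sensory cilium genes, which build and serve the cilium that carries the receptors, 0 were called in lysates in edgeR or DESeq2 (4 at an unadjusted p under 0.05, and 3 called higher with the block), with a median of 0.21. Of 7 taste and touch channel genes 0 were called in edgeR, with or without the block, or DESeq2, and 1 had an unadjusted p under 0.05. Of 6 transcription factors of chemosensory neurons 0 were called by any of these, and 0 had an unadjusted p under 0.05.

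Markers of other cells moved in part with the genotype. Of all genes tested in lysates, edgeR called 1.64% without the block and 9.45% with it, and DESeq2 called 4.41%. General neuron markers had a summed level of 1307 to 2049 CPM in Δmimi lysates and 1585 to 2256 CPM in wild type lysates, which overlapped, and 0 of 6 were called in edgeR, with or without the block, or DESeq2. None of the 6 had an unadjusted p under 0.05 without the block, and 4 did with it, at a median log2 fold change of -0.27. Of 13 photoreceptor markers Rh5, an opsin, fell by 0.83 on the log2 scale (SE 0.14, adjusted p = 0.0381, edgeR) and 0 rose, whereas the blocked fit and DESeq2 each called the opsin genes Rh4 higher and Rh3 and Rh5 lower. Of 7 head fat body markers, takeout (to) rose by 1.34 (SE 0.15, adjusted p = 0.00605, edgeR), with 1 more, Lsp2, called higher in the blocked fit, and the list summed to 6876 to 7432 CPM in Δmimi and 5004 to 7155 CPM in wild type lysates. Of 6 oocyte and germline markers 0 were called in lysates by edgeR without the block, with 5 at an unadjusted p under 0.05, and 4 with it and by DESeq2. In granules, 5 in granules 1 and 4 in granules 2 were called higher in Δmimi by edgeR, against 2.71% and 2.67% of all genes. Of 7 glia markers 0 were called in lysates by edgeR or DESeq2, with 1 at an unadjusted p under 0.05, and 1 fell with the block. Of 8 muscle markers 0 were called in lysates by edgeR or DESeq2, with 0 at an unadjusted p under 0.05, and 3 rose with the block. Testis markers were at most 2.81 CPM in sum in any lysate and were not tested. The part of these cells in the chemoreceptor differences was not tested.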

How the data were processed

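Libraries were prepared with a stranded total RNA kit, and the authors mapped the reads to dm6 and counted them per gene with STAR, Subread featureCounts and the snakePipes workflow on Ensembl release 96. Tool versions and the strand setting are not given in the sources used here. The deposited values are whole-number counts per gene, not normalized, with replicates not pooled. Tables of the authors' own granule and lysate comparisons (fold changes and p-values) were not used. All columns of the count table were mapped to libraries by title (0 were left out). Symbols, positions and exon lengths came from Ensembl release 115, matched by identifier (17252 matched, 306 not).

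Groups and replicate numbers were taken from the labels. Each of 11 comparisons was fitted to its own groups in edgeR (version 4.0.16, under R version 4.3.3) by its quasi-likelihood test, on genes with a base mean above 10, without covariates, with Benjamini-Hochberg adjustment over all genes and the study's thresholds (adjusted p under 0.05, absolute log2 fold change above 0.5). The SE of a log2 fold change was taken from the F statistic, as the size of the change over root F. Alternatives were DESeq2 version 1.42.0, its size factors, no filter, a block for the preparation number without and with an exon length correction, each library left out and, chosen after seeing the data, preparation 2 of both genotypes left out. Same-numbered libraries deviated together from their group means in every pair (r of 0.268 to 0.750). Fractions of 1 number and 1 genotype come from 1 preparation. Between genotypes r was 0.268 to 0.719, and the labels do not say what the numbers share there. The block between genotypes therefore rests on a correlation in these same data, and calls made only with it depend on that. Only the unblocked edgeR fit of lysates between genotypes was tested on simulated counts, and genes near the filter carried no planted change. Replicates differed by more than counting noise (chi-square per degree of freedom of 5.77 to 48.8), and p-values measure the spread between preparations. Floors cover counting error only. The members and lists were chosen with earlier results of these data known. Named were members with a base mean above 10 in the lysate fit, the 6 highest per kilobase of each family, the co-receptors and carbon dioxide receptors, every called member and, for each family, the most extreme unfiltered lysate changes among members with at least 30 counts in lysates.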

Additional observations from a re-analysis of the deposited data

How the results depend on the processing

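Counts were thin for many members: 37 of 85 had at least 10 counts in every Δmimi lysate, and no Gr gene exceeded 35 counts in a library. What difference could have been detected at these counts was not computed. Of 12 calls in 6 members, every one kept its direction under each alternative. With the replicate block, which pairs libraries of 1 preparation number, 6 members were called between genotypes in lysates, against 9.45% of all genes. In granules 2 between genotypes 10 were called, against 11.2%. Over lysate, the block called 1 in Δmimi granules 1 (14.2% of all genes), 3 in Δmimi granules 2 (14.8%) and 1 in wild type granules 2 (18%). With the block and an exon length correction these counts of members were, in the same order, 6, 9, 1, 2 and 2. DESeq2 size factors gave 1 member in wild type granules 1 over lysate, and the DESeq2 test 1 in Δmimi granules 1 over lysate. Without preparation 2 of both genotypes 3 members were called between genotypes in granules 1. With 1 library left out, the count was 1 to 3 in lysates and 2 to 3 in both granule fractions between genotypes, and 0 to 0 in all other comparisons. For the length correction, the size factors and the left-out libraries, shares over all genes are not given here. Those counts are therefore not read as results about the members. The cause of these moves was not tested.

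Fold changes were recomputed for the tested members in lysates between genotypes and, in granules between genotypes, for the called members alone. Among these, signs turned in 28 values of 14 members, all lysate differences with an adjusted p of at least 0.815. Over the left-out libraries the log2 fold changes ranged from -0.07 to 0.29 for Ir64a, -0.16 to 0.16 for Ir8a, -0.20 to 0.35 for Or13a, -0.27 to 0.30 for Or22a, -0.25 to 0.32 for Or35a, -0.10 to 0.43 for Or43b, -0.14 to 0.23 for Or56a, -0.48 to 0.10 for Or63a, -1.02 to 0.024 for Or67d, -0.24 to 0.18 for Or7a, -0.007 to 0.51 for Or88a and -0.14 to 0.69 for Or92a. The block gave -0.004 for Or22a. Without preparation 2 of both genotypes the values were 0.27 for Gr28b, -0.14 for Or22a, 0.11 for Or35a, -0.075 for Or56a, 0.36 for Or7a and -0.038 for Or85a.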
